A study of Callithrix jacchus with 4 samples.

Results

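The genes described here are 9 genes of the classical complement pathway, read by symbol from a table of read counts per gene: the C1q chain genes C1QA, C1QB and C1QC, the C1 protease genes C1R and C1S, the C1 inhibitor gene SERPING1, the component genes C2 and C3, and the C3a receptor gene C3AR1. All 9 symbols were found among the 35108 genes of the table, and all 9 passed the filter on low counts that 16385 genes passed. The 4 sequenced RNA libraries were made from frontal cortex of adult marmosets (Callithrix jacchus). Wild-type libraries 1 and 2 carried the label WT, with no sex given, and transgenic libraries 1 and 2 came from females labelled as carrying an APP transgene. The series title describes mutant amyloid precursor protein transgenes under the human EF1α promoter, which is active in most cell types, so the transgene is not restricted to neurons by its promoter. The labels give neither the mutation nor the number of founder animals. They also do not say that libraries of 1 group came from separate animals, so p-values measure only the spread between these libraries. The comparison asks how the cortex of transgenic animals differed from wild type.

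Complement is a cascade of blood and tissue proteins. In its classical pathway the recognition protein C1q, built of chains from 3 genes, binds a target and activates the proteases C1r and C1s, which cleave C4 and C2 into the enzyme that splits C3. The fragment C3b tags the target for uptake, and C3a signals through its receptor C3AR1. The C1 inhibitor, encoded by SERPING1, stops C1r and C1s. In brain, C1q is made mainly by microglia, and C1q and C3 are known for tagging synapses that microglia then remove.

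Total counts ranged from 12657323 to 13569838 for wild type and were 13462167 and 18932180 for transgenic libraries 1 and 2. APP was at 1822 and 2182 CPM (read counts scaled to library sizes that TMM adjusted; pairs of values are in the order of library 1 and library 2) for wild type, compared with 2143 and 2748 CPM for transgenic cortex, with transgenic library 1 inside the range of wild type. Reads of the Y-linked gene KDM5D numbered 2 and 243 for wild type and 0 in both transgenic samples, so sex and genotype cannot be fully told apart. Transgenic library 2 stood apart from the rest. Its counts differed from each other library by 37.6 to 48.1 chi-square units per degree of freedom over genes, against 7.62 to 12.9 among the other three libraries. The summed level of 10 astrocyte markers was 4267 CPM there against 10111 to 12147 CPM elsewhere, and that of 8 oligodendrocyte markers was 1025 against 2331 to 2939 CPM. The 8 markers of blood myeloid cells summed to 263 CPM in transgenic library 2 and to 17.9 to 22.5 CPM in the others. Nearly all of this came from 3 calcium-binding protein genes of neutrophils and monocytes, S100A9 at 205 CPM, S100A8 at 32.4 CPM and S100A12 at 13.3 CPM. Of the other markers on that list, LYZ was lowest in that library, at 4.65 CPM against 10.95 to 14.9 CPM, CSF3R at 4.37 CPM lay inside the range of the others, MRC1 was at 1.38 CPM, CD163 was at 1.16 CPM and FCN1 had 1 count. Neuronal markers summed to 8275 to 9953 CPM over all 4 libraries, and hepatocyte markers to at most 0.661 CPM. The 2 matched red cell markers, HBB and ALAS2, summed to 305 and 22.8 CPM for wild type. In transgenic libraries 1 and 2 that sum was 5.88 and 82.5 CPM. C1QB and C1QC, but not C1QA, ranked the 4 libraries in the same order as this sum. The part of blood in the levels of the C1q chain genes was not tested.

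None of the 9 genes reached the threshold of 0.05 for the Benjamini-Hochberg adjusted p of edgeR (quasi-likelihood test, all genes), and neither did any other gene (0 of 16385, or 0%). At an unadjusted p under 0.05 there were 2 of the 9, SERPING1 on the higher and C1QA on the lower side in transgenic cortex, where 5.62% of all genes lay. DESeq2 called 46 of 22411 genes (0.205%) and limma-voom 0 of 16385 (0%), with none of the 9 among them. By sign 5 of the 9 were higher (49.6% of all genes were) and 4 lower, with a median log2 fold change of 0.10, while the median over all genes kept was 0.00. Each transgenic library lay above each wild-type library in 3 of the 9 genes, C1R, C1S and SERPING1, a position that 19.5% of all genes took. Both lay below in C1QA alone, a position that 19.4% of all genes took. These counts over 9 genes were not tested.

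**Figure D1:**
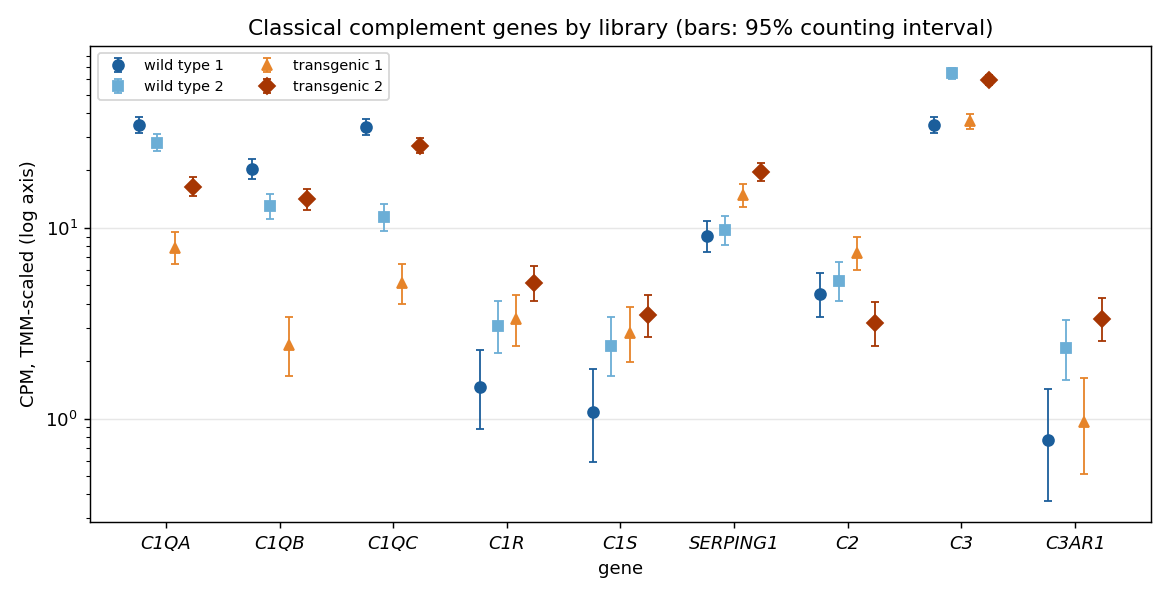
CPM of each of the 9 genes (log axis) in each of the 4 libraries, 1 point per library, with bars for the exact 95% Poisson interval of the count. The transgenic points lie below both wild-type points for C1QA and above both for C1R, C1S and SERPING1, and the groups overlap for the other genes.

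The C1q chain genes were lowest in transgenic library 1, where all 3 were between 3.98-fold and 6.88-fold under the wild-type mean. C1QA was at 34.6 and 27.9 CPM in wild-type libraries 1 and 2 and at 7.86 and 16.4 CPM in transgenic libraries 1 and 2. The groups did not overlap, and the fitted level was 2.56-fold below wild type (log2 fold change -1.36 ± 0.38 SE, n = 2 per group; edgeR unadjusted p = 0.014, adjusted p = 0.79; DESeq2 adjusted p = 0.18). C1QB was at 20.4 and 12.9 CPM in the wild-type pair against 2.43 and 14.1 CPM in the transgenic pair. Transgenic library 1 was below all others, and transgenic library 2 lay inside the range of wild type (log2 fold change -0.998 ± 0.77 SE; edgeR adjusted p = 0.80). C1QC was at 33.9 and 11.3 CPM for wild type, compared with 5.14 and 27.0 CPM for transgenic cortex. Here too transgenic library 2 lay inside the wild-type range (log2 fold change -0.48 ± 0.85 SE; edgeR adjusted p = 0.89). The unadjusted 95% interval of the log2 fold change ran from -2.30 to -0.41 for C1QA, from -2.94 to 0.94 for C1QB and from -2.63 to 1.66 for C1QC.

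Transgenic library 1 was the lowest library for 3 of 3 chain genes, as it was for 20.3% of all genes kept, and no difference between the chains was tested. The transgenic libraries were 5.82-fold apart for C1QB and 5.24-fold apart for C1QC, further than 98.4% and 98.2% of all genes kept. The wild-type libraries were 2.99-fold apart for C1QC, further than 98.5% of genes. Without transgenic library 1 the C1QA difference shrank to -0.93 on the log2 scale but passed the test (edgeR adjusted p = 0.036, and 0.036 to 1 over the alternatives), in a fit that called 9.92% of all genes and assumed that the lone transgenic library varied like the wild type. In the same fit the C1QB and C1QC values were -0.24 and 0.26, with C1QC changing sign. Without transgenic library 2, the library that stood apart, they were -1.99 for C1QA, -2.78 for C1QB and -2.13 for C1QC, and none passed.

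Although the chains join into 1 protein, their reads did not keep a fixed ratio across libraries. For each C1QA read there were 0.980 C1QC reads in wild-type library 1 (95% exact binomial interval 0.857 to 1.12), 0.406 in wild-type library 2 (0.335 to 0.490), 0.654 in transgenic library 1 (0.477 to 0.893) and 1.64 in transgenic library 2 (1.42 to 1.90). The 2 wild-type values were further apart than their counting intervals, and they bracketed transgenic library 1. C1QB reads per C1QA read were 0.591 and 0.463 for wild type against 0.308 and 0.859 for transgenic libraries 1 and 2. For both ratios transgenic library 2 was the highest and lay beyond the intervals of the other libraries. These ratios compare libraries and not the abundance of the chains, since reads per gene also depend on transcript length, and the intervals cover counting error only. By position in the RefSeq annotation of another marmoset assembly (calJac240_pri) the 3 genes are direct neighbours in the order C1QA, C1QC, C1QB on chromosome 7, and none overlaps another gene there.

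**Figure D2:**
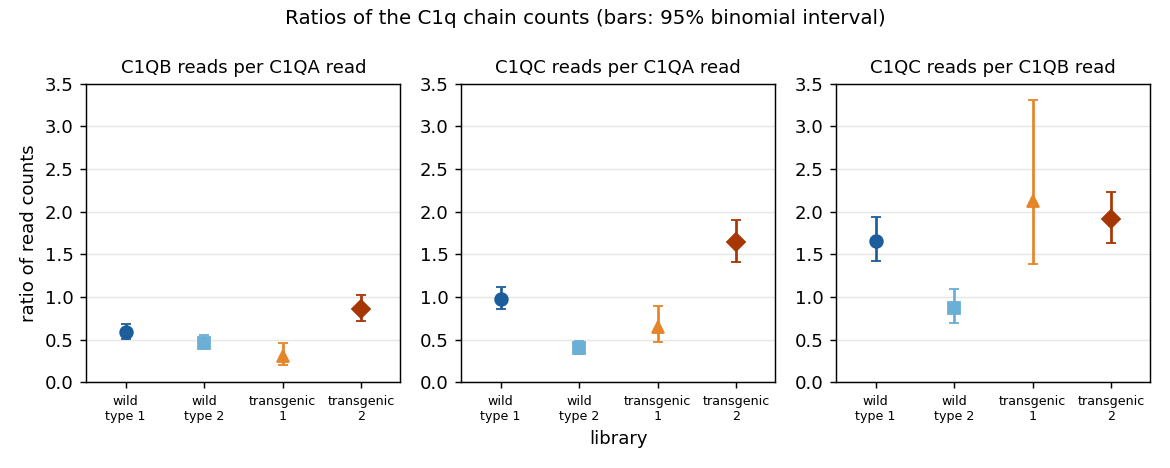
Ratio of read counts between pairs of C1q chain genes (vertical axis, no unit) in each of the 4 libraries, with exact 95% binomial intervals as bars. C1QC reads per C1QA read run from 0.406 in wild-type library 2 to 1.64 in transgenic library 2, and for this ratio the bars of the 2 libraries of each genotype do not overlap.

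The other microglial markers ordered the transgenic libraries differently from the C1q chains. Of 13 such markers 11 were lower in sign in transgenic cortex and 2 higher, where 49.6% of all genes were higher. Their median log2 fold change was -0.81. In 7 of the 13 each transgenic library lay below each wild-type library, a position that 19.4% of all genes took. Their median deviation from the wild-type mean in log2 CPM was -0.43 for transgenic library 1 and -1.05 for transgenic library 2. For the 3 chain genes these medians were -1.96 and -0.20. The difference between the 2 groups of genes was not tested. TYROBP, an adaptor of microglial receptors, was at 15.0 and 19.6 CPM in the wild-type pair against 7.35 and 6.26 CPM in the transgenic pair. It was the only 1 of the 13 markers that DESeq2 called (DESeq2 adjusted p = 0.049, edgeR adjusted p = 0.79), where 0.205% of all genes were called. CX3CR1, the fractalkine receptor gene, was at 37.5 and 68.5 CPM in wild type, at 40.3 CPM in transgenic library 1 and at 3.77 CPM in transgenic library 2. TMEM119, a marker of resident microglia, was at 8.67, 15.1, 6.69 and 0.166 CPM in the same order, the last of which is 3 counts. CD14, a receptor for bacterial lipopolysaccharide found on monocytes and microglia, was at 5.88 and 9.0 CPM for wild type, at 5.36 CPM in transgenic library 1 and at 139 CPM in transgenic library 2.

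Set against the summed level of the 13 markers, C1QA stood at 15.2% and 8.20% in wild type and at 3.61% and 6.0% in transgenic libraries 1 and 2. Groups did not overlap on this scale. CD14 made up much of the sum in transgenic library 2, which was 274 CPM with it and 135 CPM without it. Leaving CD14 out, a step chosen after the values were seen, put C1QA at 15.6% and 8.42% in wild type and at 3.70% and 12.2% in transgenic cortex, and the groups overlapped. With AIF1 and CSF1R alone as the denominator the groups overlapped as well. C1QB stood at 9.0% and 3.80% of the 13-marker sum in wild type and at 1.11% and 5.15% in transgenic cortex, and C1QC at 14.9% and 3.33% against 2.36% and 9.84%. In transgenic library 1 all 3 chains were thus low also in relation to the marker sum, which was 218 CPM there against 227 and 341 CPM in wild type. In bulk tissue fewer cells of a type and less RNA per cell cannot be told apart.

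**Figure D3:**
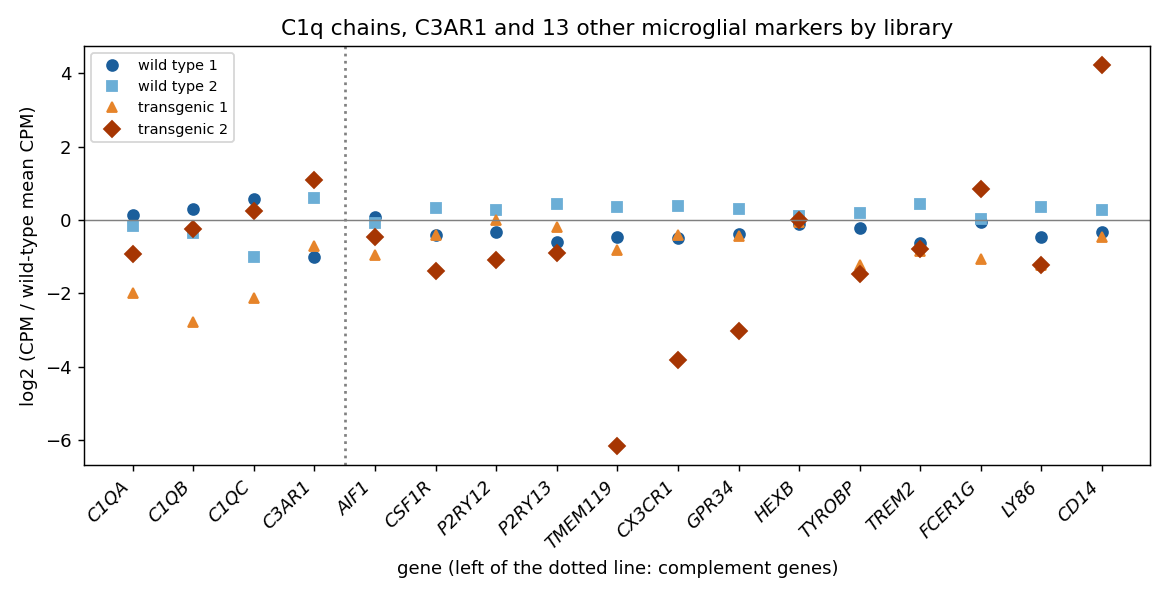
Log2 of CPM over the wild-type mean CPM (vertical axis) for the C1q chain genes and C3AR1, left of the dotted line, and 13 other microglial markers, with 1 point per library. The C1q chains are lowest in transgenic library 1, while TMEM119, CX3CR1 and GPR34 are lowest and CD14 highest in transgenic library 2.

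C1R and C1S, the proteases of the C1 complex, were both higher in the 2 transgenic libraries at low counts. C1R was at 1.47 and 3.07 CPM for wild type (19 and 42 counts) and at 3.31 and 5.15 CPM in transgenic cortex (45 and 93 counts). The groups did not overlap, although wild-type library 2 and transgenic library 1 lay within each other's counting intervals. The fitted level was 1.86-fold that of wild type (log2 fold change 0.90 ± 0.48 SE; edgeR adjusted p = 0.79), with an unadjusted 95% interval from -0.32 to 2.11. C1S was at 1.08 and 2.41 CPM for wild type (14 and 33 counts) and at 2.79 and 3.49 CPM in transgenic cortex (38 and 63 counts). Again wild-type library 1 was the lowest and transgenic library 2 the highest (log2 fold change 0.84 ± 0.48 SE; edgeR adjusted p = 0.79). The unadjusted 95% interval for C1S ran from -0.38 to 2.06. As for C1R, wild-type library 2 and transgenic library 1 lay within each other's counting intervals. Without wild-type library 1 the log2 fold changes were 0.46 for C1R and 0.37 for C1S, and without wild-type library 2 they were 1.53 for each, so the size depended on which wild-type library was used. Without transgenic library 2 they were 0.53 and 0.66, and without transgenic library 1 they were 1.17 and 0.99.

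The ratio of the 2 protease genes differed between libraries by less than counting error, whose intervals were wide at these counts. There were 0.737 and 0.786 C1S reads per C1R read for wild type against 0.844 and 0.677 for transgenic cortex, all within each other's exact 95% intervals, the narrowest of which ran from 0.484 to 0.943. C1R and C1S are neighbours on chromosome 9 in the calJac240_pri annotation. The summed level of 8 fibroblast markers was low in wild-type library 1, where both proteases were lowest, at 45.3 CPM against 180.5 and 234 CPM in wild-type library 2 and transgenic library 1. In transgenic library 2, where both proteases were highest, that sum was 50.8 CPM.

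SERPING1, whose product inactivates C1r and C1s, was higher in both transgenic libraries than in wild type. It was at 9.05 and 9.73 CPM for wild type, compared with 14.8 and 19.6 CPM for transgenic cortex (117, 133, 202 and 354 counts). The counting intervals of the groups did not overlap. The fitted level was 1.84-fold that of wild type (log2 fold change 0.88 ± 0.23 SE, n = 2 per group; edgeR unadjusted p = 0.012, adjusted p = 0.79; DESeq2 adjusted p = 0.66), with an unadjusted 95% interval from 0.29 to 1.47. The gene ranked 178 of 16385 by p in edgeR, where C1QA ranked 206, whereas in DESeq2 and limma-voom C1QA had the smaller p. SERPING1 was 1.58-fold the wild-type mean in transgenic library 1. The part of other cell types in its levels was not tested. The log2 fold change was 0.66 when transgenic library 2 was left out. Leaving out transgenic library 1 gave 1.06, which passed (edgeR adjusted p = 0.021, and 0.021 to 1 over the alternatives), in the fit that called 9.92% of all genes. SERPING1 reads per C1R read were 6.16 and 3.17 for wild type against 4.49 and 3.81 for transgenic cortex. The transgenic ratios lay inside the wild-type range, whose upper end rested on 19 C1R counts in wild-type library 1. The exact 95% binomial intervals of all 4 libraries overlapped, and those of wild type ran from 3.77 to 10.6 and from 2.22 to 4.59.

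C2, which is cleaved to form the C3-splitting enzyme, did not divide by genotype. It was at 4.49 and 5.27 CPM in the wild-type pair against 7.35 and 3.16 CPM in the transgenic pair, so that the transgenic libraries lay on either side of the wild-type pair (log2 fold change 0.10 ± 0.46 SE; edgeR adjusted p = 0.96). Leaving out transgenic library 2 gave 0.59 and leaving out transgenic library 1 gave -0.63. The other 8 of the 9 genes had a higher level in transgenic library 2 than in transgenic library 1, an order that 50.5% of all genes took. The neighbour of C2 on chromosome 4, CFB, encodes factor B, the counterpart of C2 in the alternative pathway. CFB was at 2.32 and 3.15 CPM for wild type, compared with 4.63 and 15.4 CPM for transgenic cortex, 5.65-fold over the wild-type mean in transgenic library 2. The 2 gene models do not overlap in the calJac240_pri annotation.

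C3, the central component on which all complement pathways converge, varied more within each genotype than between them. It was at 34.7 and 64.9 CPM in the wild-type pair against 36.2 and 59.6 CPM in the transgenic pair. Library 1 was the low and library 2 the high one of each group, and the counting intervals of wild-type library 2 and transgenic library 2 overlapped, as did those of wild-type library 1 and transgenic library 1. The log2 fold change was -0.05 ± 0.38 SE (edgeR adjusted p = 0.97). Its unadjusted 95% interval ran from 0.50-fold to 1.86-fold, so changes within these bounds cannot be told from none with 2 libraries per group. The wild-type libraries were 1.87-fold apart, further than 94.5% of all genes kept, and leaving out either wild-type library gave log2 fold changes of opposite sign (-0.44 without library 1 and 0.47 without library 2). Leaving out transgenic library 1 gave 0.26 and leaving out transgenic library 2 gave -0.47.

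C3AR1, the receptor for C3a on microglia and other myeloid cells, was detected at low counts and, like C3, was higher in library 2 than in library 1 of each group. It was at 0.774 and 2.34 CPM for wild type (10 and 32 counts) and at 0.955 and 3.32 CPM in transgenic cortex (13 and 60 counts). Transgenic library 2 was the highest and wild-type library 1 the lowest, and the groups overlapped (log2 fold change 0.47 ± 0.78 SE; edgeR adjusted p = 0.88). The wild-type libraries were 3.03-fold and the transgenic libraries 3.48-fold apart, further than 98.2% and 95.6% of genes. Leaving out transgenic library 2 gave a log2 fold change of -0.71, and leaving out wild-type library 1 gave -0.12, so the sign rested on those libraries.

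**Figure D4:**
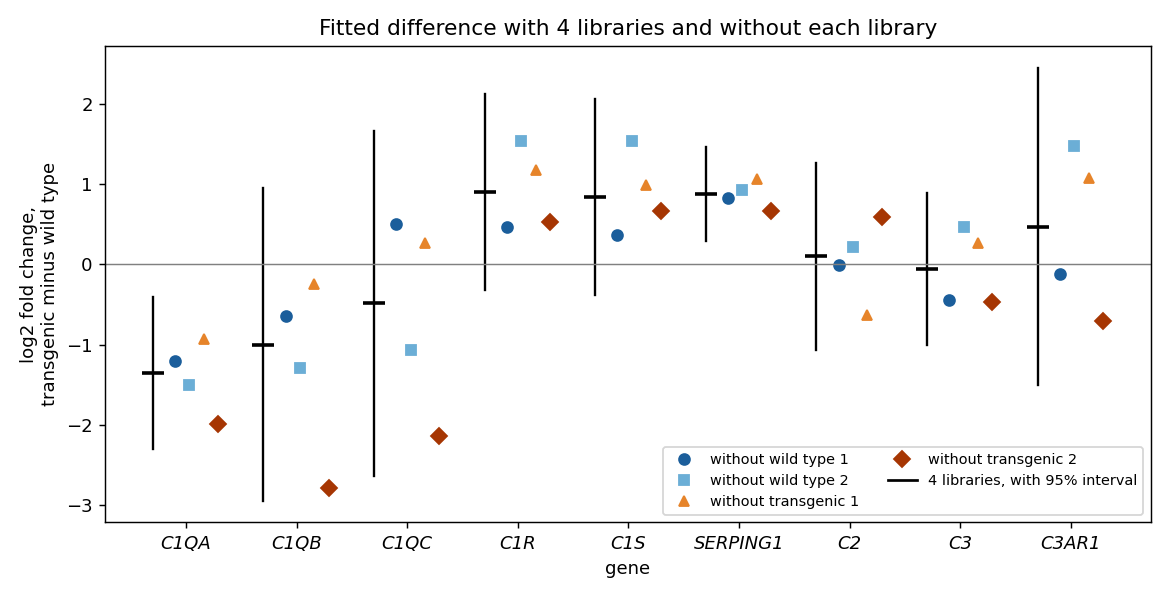
Log2 fold change of transgenic against wild type (vertical axis) for each of the 9 genes, with all 4 libraries (black dash with its unadjusted 95% interval) and without each library in turn (coloured points). C1QA and C1QB stay negative and C1R, C1S and SERPING1 stay positive in the 4 fits, while C1QC, C2, C3 and C3AR1 take both signs.

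Of 54 further complement genes, 51 were matched and 34 passed the filter on low counts. C4A, C4B and CR1L were not matched and are not analysed here. None of the 34 passed edgeR's adjusted threshold, 1 was higher and 2 were lower at an unadjusted p under 0.05, against 3.23% and 2.39% of all genes, and DESeq2 and limma-voom called none. By sign 21 were higher and 13 lower, with a median log2 fold change of 0.10. Both transgenic libraries were above both wild-type libraries in 4 genes and below in 3, while 19.5% and 19.4% of all genes took these positions.

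Among the alternative and terminal pathway genes, CFB had a log2 fold change of 1.88 ± 0.62 SE (edgeR unadjusted p = 0.027, adjusted p = 0.79). C7, a part of the membrane attack complex, was at 2.79 and 13.1 CPM for wild type, compared with 17.8 and 12.8 CPM for transgenic cortex. It was low in wild-type library 1 alone, 1 of 2 libraries where the fibroblast markers were low, and the part of such cells in this was not tested. C5, whose cleavage starts that complex, was at 1.88 to 4.39 CPM over the 4 libraries. The remaining genes of the complex were barely detected. C6, C8B and C9 had 0 counts in all 4 libraries, where 3 counts correspond to 0.166 to 0.232 CPM, and C8A and C8G had at most 5 counts in any library.

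The 6 lectin pathway genes kept had no common direction, with 3 higher and 3 lower in sign and a median log2 fold change of -0.017. For 2 of them, FCN3 and COLEC11, each transgenic level was under each wild-type level, as for 19.4% of all genes. MASP1 had the reverse order, as 19.5% of all genes did. FCN3, a ficolin that binds sugars, was at 9.13 and 4.46 CPM in the wild-type pair against 3.53 and 2.21 CPM in the transgenic pair (log2 fold change -1.25 ± 0.47 SE; edgeR unadjusted p = 0.043, adjusted p = 0.79). COLEC11, a collectin, was at 10.4 and 8.19 CPM for wild type, compared with 6.10 and 2.71 CPM for transgenic cortex. Endothelial markers moved in the same order as FCN3 across libraries, with summed levels of 399 and 287 CPM for wild type against 259 and 194 CPM for transgenic cortex, and their part was not tested. The protease gene MASP1 was at 3.33 and 4.61 CPM in the wild-type pair against 4.85 and 4.93 CPM in the transgenic pair, and MASP2 at 11.99 and 9.29 CPM against 9.33 and 12.2 CPM. MBL2 had no count in any library.

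Inhibitors of complement had 10 genes kept, with a median of 0.13 for their log2 fold changes, of which 7 had a positive and 3 a negative value. CD59, which blocks the membrane attack complex, was at 90.9 and 91.7 CPM for wild type, compared with 95.7 and 88.3 CPM for transgenic cortex (log2 fold change 0.01 ± 0.12 SE). CD55, which dismantles the C3-splitting enzyme, was at 18.0 and 15.3 CPM against 17.9 and 18.4 CPM. CD46, a cofactor for the cleavage of C3b, was at 34.0 and 27.1 CPM in the wild-type pair against 32.0 and 54.8 CPM in the transgenic pair, so transgenic library 2 alone was high. CLU, the gene for clusterin and an Alzheimer's risk gene, was at 1340 and 1255 CPM for wild type, compared with 1280 and 918 CPM for transgenic cortex. CFI, a protease that inactivates C3b, was at 14.6 and 9.58 CPM against 18.0 and 11.7 CPM. VTN, the gene for vitronectin, was at 49.5 and 82.7 CPM in the wild-type pair against 39.8 and 37.2 CPM in the transgenic pair (log2 fold change -0.78 ± 0.26 SE; edgeR unadjusted p = 0.029, adjusted p = 0.79).

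Transgenic library 2 was the highest library for 6 of 9 receptor genes and 3 of 4 pentraxin genes kept, and for 35.1% of all genes. ITGB2, the β chain of complement receptors 3 and 4, was at 8.59 and 15.4 CPM for wild type, compared with 5.44 and 21.4 CPM for transgenic cortex. ITGAM, the α chain of complement receptor 3, was at 2.63 and 3.80 CPM against 2.35 and 3.43 CPM, and the groups overlapped. PTX3, an inflammation-induced pentraxin that binds C1q, was at 1.08 and 1.61 CPM in wild type, at 1.40 CPM in transgenic library 1 and at 16.5 CPM in transgenic library 2 (edgeR adjusted p = 0.79). The neuronal pentraxin receptor gene NPTXR was at 534 and 799 CPM in the wild-type pair against 818 and 1041 CPM in the transgenic pair, and NPTX2 was at 22.0 and 46.7 CPM against 42.3 and 56.9 CPM. Of the blood myeloid markers, S100A8, S100A9 and S100A12 were also high in that library while LYZ was lowest there, and the part of such cells in these levels was not tested. Without transgenic library 1, 5 of these further genes passed the adjusted threshold, CFB, PTX3, ITGAX and CD46 as higher and COLEC11 as lower, where 4.52% and 5.4% of all genes did so.

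**Figure D5:**
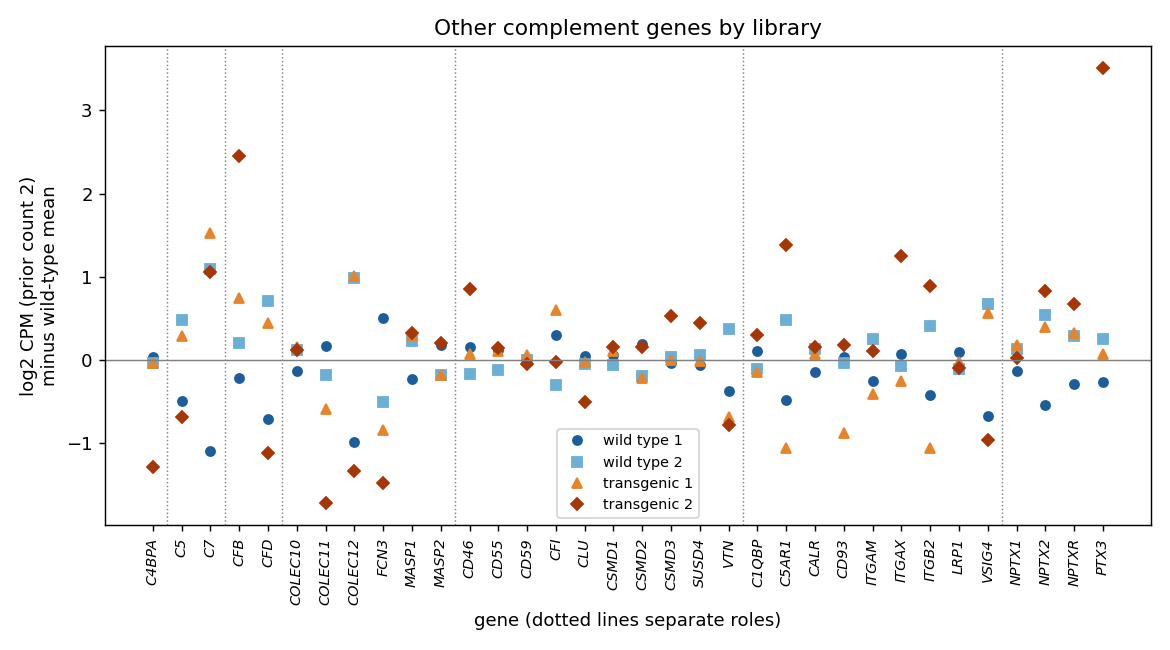
Deviation from the wild-type mean in log2 CPM (vertical axis) of 34 further complement genes, grouped by role between dotted lines, with 1 point per library. The median deviation is 0.07 in transgenic library 1 and 0.15 in transgenic library 2, where CFB and PTX3 stand highest and COLEC11 lowest.

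Among 13013 genes with a symbol and a mean count of at least 20, the profiles most like the mean profile of the C1q chains over the 4 libraries were those of PLK1, RNASE6, RSPH10B, SRARP, SCARF1 and TMEM71, by root mean square distance of centred log2 CPM. RNASE6 was at 22.7 and 17.0 CPM for wild type, compared with 5.88 and 14.9 CPM for transgenic cortex, at a distance of 0.281, while C1QA, C1QB and C1QC themselves were 0.392, 0.228 and 0.377 from their mean. PLK1, at a distance of 0.131, was at 0.367 to 2.24 CPM. Likeness over 4 libraries is a description only. Among the 13 microglial markers the distances ran from 0.634 for AIF1 to 2.52 for TMEM119. The profiles most like that of C3 were those of SPATA24, WNT10A, LPAR2 and RASAL3, each at most at 4.39 CPM, at distances of 0.057 to 0.0969.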

How the data were processed

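What the authors deposited is a table of raw counts of reads, with a row for each gene symbol and a column for each library. Per the submitters' processing notes the tools were featureCounts 1.5.2, kallisto 0.46.2 and STAR 2.5.3a; the tool that made the counts, the genome build, the annotation and the strand setting were not given in the sources used here. Antisense and overlapping genes may share reads. Gene order came by symbol from the calJac240_pri assembly, possibly a different build.

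Counts were analysed in R 4.3.3 with edgeR 4.0.16 (filterByExpr, TMM, quasi-likelihood F-test with genotype as the only term), with Benjamini-Hochberg adjustment over 16385 genes and a threshold of 0.05. Intervals of fold changes are not adjusted for the number of genes. With 2 against 2 libraries the smallest two-sided p of an exact permutation test is 0.33, and it was not used. A count of 3 corresponds to 0.166 to 0.232 CPM. Log2 CPM used a prior count of 2. The members and lists were chosen with earlier results of these data known. Always named were the 9 genes, and of the further complement genes the 8 with the smallest p and a set of 7 more, others being chosen after their values were seen. Alternatives were DESeq2 1.42.0, limma-voom (limma 3.58.1), RLE scaling, library totals, other count filters, a replicate block and leaving out each library. The result of 1 further listed gene is not reported here. The steps were tested on simulated data, where the criteria for passing covered only differences larger than any fitted for the 9 genes.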

Additional observations from a re-analysis of the deposited data

How the results depend on the processing

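With 2 libraries per group, leaving out 1 moved most values. Over these 4 fits edgeR called between 0 and 1710 genes, between 0 and 2 of the 9 and between 0 and 5 of the further complement genes, and every such call of the 9 and of the further genes came without transgenic library 1. DESeq2 called 46 genes and edgeR without a count filter 5, none of them complement genes of these lists. The log2 fold change ranged from -1.99 to -0.93 for C1QA and from 0.66 to 1.06 for SERPING1. It changed sign over the same fits for C1QC (-2.13 to 0.50), C2 (-0.63 to 0.59), C3 (-0.47 to 0.47) and C3AR1 (-0.71 to 1.47). C2 was also at -0.07 in limma-voom. The cause was not tested. C1R, C1S and C3AR1 had mean counts under 50 and were not in the fit with that minimum. The labels do not say that equal numbers pair the libraries, and same-numbered libraries did not deviate together (correlation -0.137 over genes). With the replicate block edgeR called 0 genes and C2 was at -0.01, and with the numbers crossed, a pairing added after seeing the data, it called 0. C1QC per microglial marker level was -0.55 on the log2 scale with 13 markers and 0.03 with AIF1 and CSF1R alone.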

Other observations

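The globular domain of C1q is shared by secreted proteins that organise synapses and take no part in complement, the C1q-like proteins and the cerebellins. Their 8 genes, listed after the complement results were seen, all passed the filter on low counts and none passed edgeR's adjusted threshold. In 3 of the 8 both transgenic libraries lay above both wild-type libraries, a position of 19.5% of all genes, and in the other 5 the groups overlapped. C1QL3 was at 109 and 119 CPM for wild type, compared with 164 and 290.2 CPM for transgenic cortex (log2 fold change 0.99 ± 0.28 SE; edgeR unadjusted p = 0.015, adjusted p = 0.79). CBLN1 was at 2.48 and 1.32 CPM in the wild-type pair against 4.85 and 5.43 CPM in the transgenic pair, and CBLN3 at 9.44 and 11.5 CPM against 14.8 and 15.9 CPM. CBLN2 and CBLN4, at 104 and 36.4 CPM in wild-type library 1 and 162 and 66.7 CPM in wild-type library 2, had transgenic levels inside the wild-type range. The C1QTNF genes, a further family with this domain, had 6 genes kept, 2 higher and 4 lower in sign (49.6% of all genes were higher). Their median log2 fold change was -0.108. Both transgenic libraries lay above both wild-type libraries in 1 of the 6 and below in 2, positions of 19.5% and 19.4% of all genes.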
